A study of Homo sapiens with 6 samples.

Results

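The 9 genes described here encode the machinery that displays peptides on MHC class I molecules. They were taken by symbol: the heavy chains HLA-B, HLA-C, HLA-E and HLA-F, the light chain B2M, the peptide transporter subunits TAP1 and TAP2, the bridging protein TAPBP and the transactivator NLRC5. Each symbol matched 1 primary-assembly Ensembl ID among the 60499 gene IDs of the table, and all 9 passed the filter on low counts, which kept 17608 genes for testing. RNA came from H1, an established human embryonic stem cell line, held for 4 days in NutriStem medium that was renewed each day, and was taken at confluence. The wells were coated with laminin-521 alone (LN-521) or with laminin-521 and laminin-221 together (LN-521+LN-221), and each coating had 3 wells. Laminins are basement membrane proteins on which pluripotent cells can be grown without feeder cells. The comparison asks which transcripts differ when laminin-221 is added. Since all wells came from 1 line, p-values measure the spread between wells of H1 only. In bulk RNA, fewer cells of a type and less RNA per cell cannot be told apart.

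In antigen presentation, proteasomes cut proteins into peptides, and the TAP1 and TAP2 heterodimer carries these into the endoplasmic reticulum. There TAPBP (tapasin) holds a heavy chain, paired with beta-2 microglobulin from B2M, beside the transporter until a peptide is bound. HLA-B and HLA-C present peptides to cytotoxic T cells and also bind receptors of natural killer cells, while HLA-E mainly presents signal-sequence peptides to natural killer cells. NLRC5 is drawn to class I promoters by factors bound to an upstream module made of W, X1, X2 and Y boxes, and interferons raise most of these genes. Human pluripotent cells are known for low class I display.

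Upstream sequence is shown for 4 members whose windows carry the letters of these boxes or of interferon response elements. The RefSeq promoter table (GRCh38.p14) gave 300-base windows, from 250 bases before to 50 after a start, for 7 of the 9 members. HLA-E and NLRC5 had no entry, and TAP1 had 2 windows. Capitals mark letters that match, on either strand, TGACG (the core of a CREB half-site, as in the X2 box), CCAAT (the core of the Y box, ATTGG when read on the other strand), TTTCNNTT (an interferon response core) or a kappa-B-like element (GGG, 2 bases of any kind, TT, 1 such base and CC). Sequences are those of the reference genome, not of H1, and run 5′ to 3′ on the strand of the gene.
HLA-B: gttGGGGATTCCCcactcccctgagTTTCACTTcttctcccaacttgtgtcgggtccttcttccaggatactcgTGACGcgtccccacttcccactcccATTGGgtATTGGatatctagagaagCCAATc
HLA-C: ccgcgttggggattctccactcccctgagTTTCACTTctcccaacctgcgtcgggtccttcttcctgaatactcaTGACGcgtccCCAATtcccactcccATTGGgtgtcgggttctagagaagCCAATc
B2M: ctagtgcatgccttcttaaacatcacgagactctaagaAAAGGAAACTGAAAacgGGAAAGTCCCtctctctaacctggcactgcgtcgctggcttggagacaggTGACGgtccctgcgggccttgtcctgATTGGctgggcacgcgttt
TAP2: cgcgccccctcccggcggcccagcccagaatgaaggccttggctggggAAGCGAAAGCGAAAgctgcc
The HLA-B stretch lies at chr6:31357230-31357359 and the HLA-C stretch at chr6:31272143-31272272, both on the minus strand. The B2M stretch is chr15:44711337-44711486 on the plus strand, and the TAP2 stretch is chr6:32838782-32838849 on the minus strand.

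HLA-B, HLA-C and B2M each held TGACG followed by ATTGG with 15 to 30 bases between them. This pair, counted on either strand and overlapping the single motifs it is made of, occurred in 203 of 34943 promoter windows of the same length (0.581%). It spanned bases -106 to -70 from the start of HLA-B, -105 to -76 from that of HLA-C and -75 to -45 from that of B2M. In HLA-B another ATTGG, at -81 to -77, also lay within this distance of TGACG. Among the single motifs, TTTCNNTT was in 7 of the 8 member windows and in 22.9% of all windows, and overlapping matches of it ran in tandem in B2M, TAP1, TAP2 and TAPBP. The kappa-B-like element was in 4 of 8 and 5.67%, TGACG in 4 of 8 and 24.5%, and CCAAT in 5 of 8 and 34.6%. These are matches of letters, and no binding was measured.

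**Figure D1:**
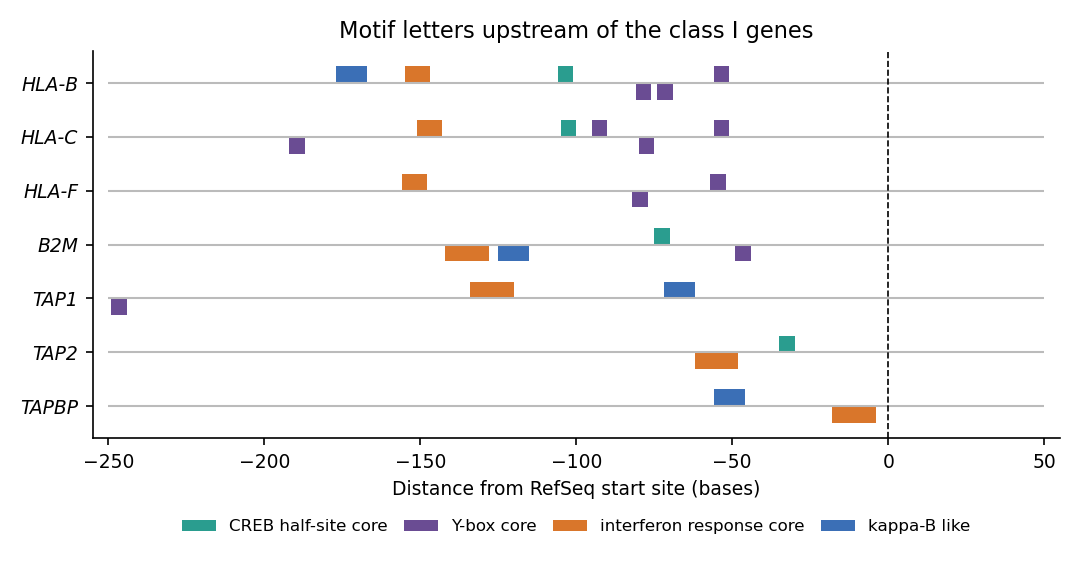
Matches of 4 motifs in the RefSeq promoter windows of 7 members, by distance from the start site in bases; blocks above a line are on the strand of the gene and blocks below it on the other strand. For TAP1 the upstream window is drawn, since the other held no match; HLA-B, HLA-C and HLA-F share an interferon response core between -156 and -144 and a Y-box core between -57 and -52, while the X2-like letters are seen in HLA-B, HLA-C, B2M and TAP2.

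Of the 9 genes, 7 lie on the short arm of chromosome 6, in the MHC, and all are protein coding. Positions are on GRCh38, from GENCODE release 29. HLA-B is annotated at chr6:31269491-31357188, HLA-C at chr6:31268749-31272130, HLA-E at chr6:30489467-30494205 and HLA-F at chr6:29722775-29738528. TAP1 lies at chr6:32845209-32853978, TAP2 at chr6:32821833-32838780 and TAPBP at chr6:33299694-33314387. B2M is at chr15:44711487-44718877 and NLRC5 at chr16:56989485-57083531. Counts covered whole genes, so exons and untranslated regions were not told apart.

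Libraries held 20606450 to 26836686 estimated counts, and 30.7% to 37.9% of their TPM fell on 7SL, 7SK, ribosomal and mitochondrial RNA. TPM, which corrects for transcript length and makes every library sum alike, is used for levels between genes. CPM, the count divided by the scaled library size, is used between libraries. All 10 pluripotency markers passed the filter, with a summed level of 2896 to 3256 TPM on LN-521 and 2835 to 3041 TPM on LN-521+LN-221. Within them NANOG, TDGF1 and POU5F1 fell on LN-521+LN-221, by 0.73, 0.65 and 0.36 on the log2 scale, and LIN28A rose by 0.23. The edgeR call for LIN28A was lost without replicate 3 of LN-521, or replicate 2 or 3 of LN-521+LN-221 (adjusted p = 0.0765, 0.112 and 0.0568). That for POU5F1 was lost without replicate 2 of LN-521+LN-221 (adjusted p = 0.0508), and limma on log2(TPM + 1) called TDGF1 but none of the other 3. With a pseudocount of 0.1 that call was lost as well (limma adjusted p = 0.0521), and the GC correction with the replicate block lost the edgeR call for NANOG (adjusted p = 0.0567). Of 6 immune markers, 5 did not pass the filter, among them PTPRC (CD45), the common leukocyte antigen, at 0 to 2 counts. Endothelial markers summed to 3.67 to 5.24 TPM and 4.41 to 4.88 TPM. Most of the sum was TEK, at 3.47 to 4.86 TPM, with a log2 fold change of 0.02 (edgeR adjusted p = 0.951). VWF rose (1.94-fold, edgeR adjusted p = 0.0272) at 32 to 88 counts, a call not made by DESeq2 (adjusted p = 0.0761) or without replicate 3 of LN-521, or replicate 2 or 3 of LN-521+LN-221 (edgeR adjusted p = 0.113, 0.131 and 0.215). PECAM1 had 5, 9 and 5 counts on LN-521, against 4, 4 and 2 on LN-521+LN-221, and CDH5 had 9, 3 and 2 against 1, 1 and 1; both were too low to test. Trophoblast markers summed to 12.8 to 16.3 TPM, most of it KRT7 at 11.1 to 13.8 TPM. The log2 fold change was -0.12 for KRT7 and 0.26 for TFAP2A (edgeR adjusted p = 0.65 and 0.554). Germ layer markers summed to 0.25 to 1.29 TPM. Fibroblast markers summed to 78.9 to 92.5 and 83.1 to 98.8 TPM with LUM at 0. COL1A1 and COL1A2, the chains of type I collagen, carried most of that sum. COL1A1 was at 167, 180 and 159 CPM on LN-521, against 145, 148 and 146 CPM on LN-521+LN-221, without overlap, and its log2 fold change was -0.20 (edgeR adjusted p = 0.0724; past the threshold in 5 of 16 alternatives, and 0.01 in limma on log2(TPM + 1)). COL1A2 had an estimate of the other sign, 0.12 (edgeR adjusted p = 0.449). It was past the threshold in 1 of 16 alternatives, a fit with 1 library left out. The part of these cell markers in the class I values was not tested. Replicate 1 of LN-521 stood apart on the second principal component, at 31.1 against -16 to 3.96 for the other 5 libraries, so the members' results without it are given beside the main ones.

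No member passed the threshold of an adjusted p of 0.05 (edgeR, 0 of 9), against 2.53% of all genes tested. At an unadjusted p under 0.05 edgeR also gave 0 of 9, against 14.5% of all genes, and DESeq2 gave 0 of 9 at either threshold. The DESeq2 shares were 3.16% of 15873 genes (adjusted) and 5.16% of 36260 genes (unadjusted). The larger set had no filter beyond 1 count, so its share is not on the footing of the 14.5%. The log2 fold change of LN-521+LN-221 over LN-521 was below 0 for 7 members and above 0 for HLA-E and B2M. On the deposited TPM, 6 of the 9 had a lower mean on LN-521+LN-221. The members' median was -0.12, beside -0.00 over all genes, of which 50.3% lay below 0. Without replicate 1 of LN-521 the estimates of HLA-B, HLA-F and TAPBP were -0.12, -0.08 and -0.03, and those of the other members are given with each gene. A correction of the counts for transcript GC content moved the estimates of HLA-B to -0.07, HLA-C to -0.06, TAP1 to -0.07, B2M to 0.06 and TAPBP to -0.00217, and limma on log2(TPM + 1) moved those of HLA-C to -0.07 and TAP1 to -0.05. The members' median absolute log2 fold change over all 6 libraries was 0.12, beside 0.11 over all genes. CPM of the coatings did not overlap for 1 of 9 members, HLA-B, against 19.9% of all genes; the share that lay lower without overlap, as HLA-B did, was 9.68%.

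**Figure D2:**
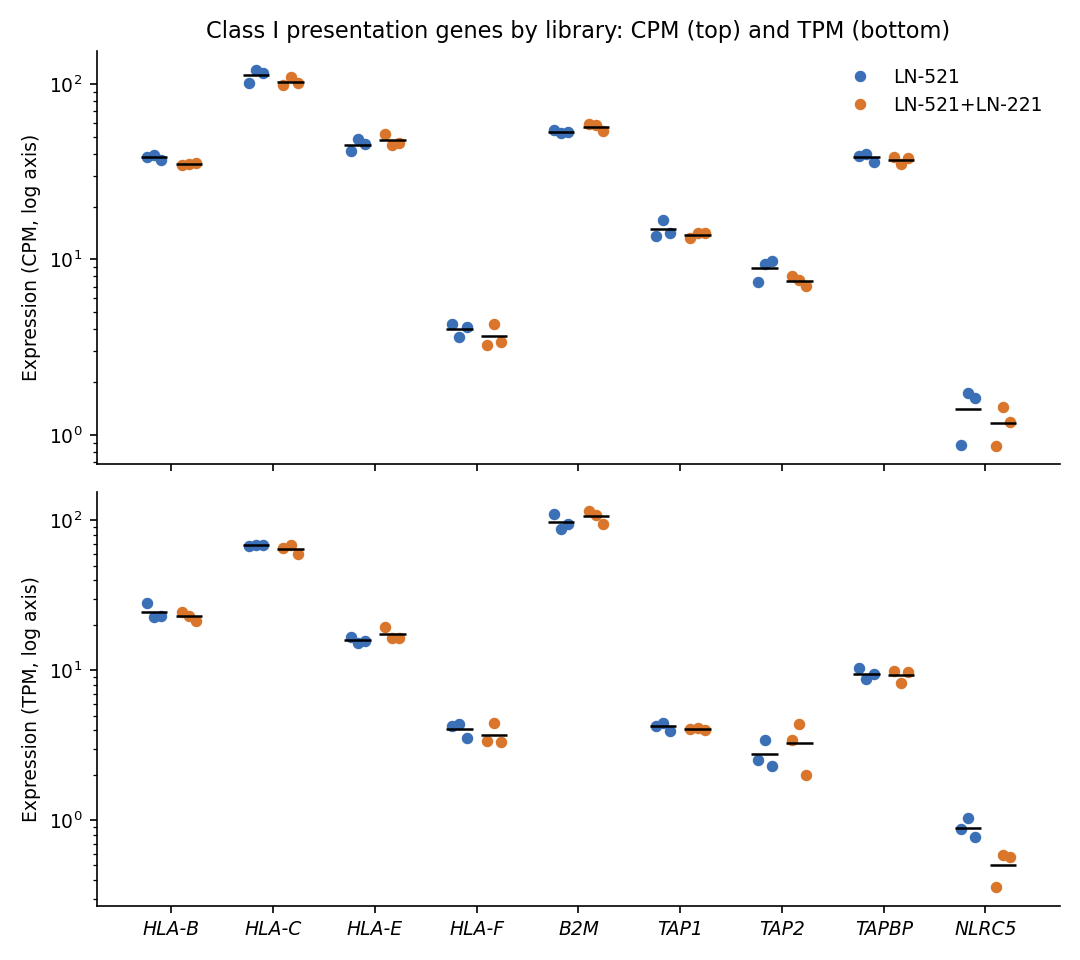
Level of each member in every library, as CPM (top, log axis) and deposited TPM (bottom, log axis), for LN-521 (blue) and LN-521+LN-221 (orange); bars are means of 3 wells. The coatings overlap in CPM for every member but HLA-B and in TPM for every member but NLRC5, and most steps in the order of the genes are larger than the gaps between coatings.

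Levels per length spanned a wide range. B2M was the highest member, with 88.3 TPM in the lowest library, a median of 102 and 116 in the highest. The most abundant heavy chain member was HLA-C at 60.1, 68.1 and 69.1 TPM (lowest, median, highest), followed by HLA-B at 21.4, 23.1 and 28 TPM. HLA-E reached 15.3, 16.4 and 19.5 TPM. The loading genes were lower. TAPBP was at 8.24, 9.59 and 10.4 TPM, and TAP1 at 3.97, 4.09 and 4.46 TPM. HLA-F, a heavy chain with limited surface display, stood at 3.31, 3.88 and 4.44 TPM, and TAP2 at 2.01, 2.98 and 4.41 TPM. NLRC5 was the lowest at 0.36, 0.68 and 1.04 TPM. The ranges of neighbours in this order overlapped for TAP1 and HLA-F and for HLA-F and TAP2, and these 3 genes were not separated; every other step was in the same direction in all 6 libraries.

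The classical heavy chains were slightly lower in the wells with laminin-221, by less than the test could separate from well-to-well spread. HLA-B was at 38.4, 39.3 and 36.8 CPM on LN-521, against 34.6, 35.2 and 35.5 CPM on LN-521+LN-221. All 3 wells with laminin-221 lay below all 3 without it, at a mean of 35.1 ± 0.469 against 38.2 ± 1.29 CPM (SD, n = 3 each). The log2 fold change of HLA-B was -0.12 ± 0.07 (SE), with a 95% interval of -0.26 to 0.02 (edgeR adjusted p = 0.451). On the deposited TPM scale the same libraries overlapped, at 28, 22.7 and 23.1 against 24.6, 23 and 21.4 TPM.

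HLA-C, which is the main ligand of killer-cell immunoglobulin-like receptors, was at 101, 121 and 116 CPM on LN-521, against 99.2, 110 and 101 CPM on LN-521+LN-221. The coatings overlapped because replicate 1 of LN-521 was as low as the wells with laminin-221. The log2 fold change was -0.12 ± 0.07 (SE), interval -0.27 to 0.02 (edgeR adjusted p = 0.44). Without replicate 1 of LN-521, HLA-C was called lower, at -0.20 ± 0.06 (SE; edgeR adjusted p = 0.0383), and was the only member called in any alternative fit; 6.54% of all genes were called in that fit. Without replicate 2 of LN-521 the estimate was -0.07 (edgeR adjusted p = 0.718).

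HLA-E was at 41.3, 48.6 and 45.3 CPM on LN-521, against 51.8, 45.2 and 46.4 CPM on LN-521+LN-221. The highest value was in a well with laminin-221 and the other 2 such wells lay within the LN-521 range. Its log2 fold change was 0.08 ± 0.08 (SE), interval -0.08 to 0.24 (edgeR adjusted p = 0.679), and it ranged from 0.03 (without replicate 1 of LN-521) to 0.14 (without replicate 2 of LN-521) with 1 library left out. HLA-F was at 4.27, 3.61 and 4.13 CPM against 3.27, 4.31 and 3.38 CPM, from 68 to 103 estimated counts. Its highest and lowest wells were both on LN-521+LN-221, and the log2 fold change of -0.13 ± 0.16 (SE) had an interval of -0.47 to 0.22 (edgeR adjusted p = 0.784). With 1 library left out it ranged from -0.26 (without replicate 2 of LN-521+LN-221) to -0.06 (without replicate 1 of LN-521+LN-221). Summed over the 4 heavy chain members, the wells held 185, 213 and 202 CPM on LN-521, against 189, 195 and 186 CPM on LN-521+LN-221, and overlapped.

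The heavy chain genes are near-identical in places, and reads that match several of them cannot be assigned to 1 with certainty. Counts of HLA-B and HLA-C were not whole in all 6 libraries and those of HLA-E in 5, whereas those of B2M, TAP1 and NLRC5 were whole in every library. Of the 31-base words in the exons of HLA-C, 15.9% also occurred in another gene, as did 12.2% of those of HLA-B, 10.3% of those of HLA-E and 3.62% of those of HLA-F. HLA-B and HLA-C shared 281 such words, 8.86% of those of HLA-B and 10.4% of those of HLA-C. Single heavy chain values are therefore uncertain to an extent that the tables do not give. HLA-B, HLA-F and TAP1 also overlap antisense genes (for TAP1, PSMB8-AS1 over 456 exon bases), and with no statement on strand in the counting, reads of the partners may be mixed.

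B2M, the light chain shared by all class I molecules, was at 54.8, 52.7 and 53.3 CPM on LN-521, against 58.9, 58.2 and 54.3 CPM on LN-521+LN-221. The ranges met: the lowest well with laminin-221 lay just below the highest without it. The log2 fold change was 0.09 ± 0.06 (SE), interval -0.04 to 0.22 (edgeR adjusted p = 0.556), and 0.11 without replicate 1 of LN-521. B2M and the classical heavy chains thus had estimates of opposite sign, but none of these passed the test and the difference between the genes was not tested.

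The transporter subunits had estimates below 0. TAP1 was at 13.6, 16.8 and 14.2 CPM on LN-521, against 13.2, 14.1 and 14.1 CPM on LN-521+LN-221, and only replicate 2 of LN-521 stood clear of the rest. Its log2 fold change was -0.11 ± 0.10 (SE), interval -0.32 to 0.10 (edgeR adjusted p = 0.681). It was -0.17 without replicate 1 of LN-521 and -0.01 without replicate 2 of LN-521. The bridge TAPBP was at 38.7, 39.7 and 36.1 CPM against 38.3, 35.1 and 37.7 CPM. These wells were interleaved, and the log2 fold change was -0.04 ± 0.07 (SE), with the narrow interval of -0.19 to 0.11 (edgeR adjusted p = 0.843). It ranged from -0.08 (without replicate 3 of LN-521) to -0.00363 (without replicate 2 of LN-521+LN-221) with 1 library left out.

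TAP2 was at 7.41, 9.47 and 9.75 CPM on LN-521, against 8.04, 7.67 and 7.01 CPM on LN-521+LN-221. Replicates 2 and 3 of LN-521 were higher than the other 4 wells. The log2 fold change was -0.23 ± 0.13 (SE), interval -0.50 to 0.03 (edgeR adjusted p = 0.424), and -0.35 without replicate 1 of LN-521 (adjusted p = 0.0938). A second gene model on the same strand, ENSG00000250264, shares 2064 exon bases with TAP2, and 31.7% of the 31-base words of TAP2 occur in it. It was given 18.99, 0 and 0 counts on LN-521, against 58.04, 2.93 and 10.62 counts on LN-521+LN-221. These were between 0 and 25.8% of the summed counts of the locus. With both models added together, an alternative chosen after seeing the data, the log2 fold change was -0.08 (edgeR adjusted p = 0.849). On TPM, which also depends on the transcript length assigned in each library, TAP2 was at 2.52, 3.46 and 2.32 against 3.43, 4.41 and 2.01, and limma on log2(TPM + 1) gave 0.16 (adjusted p = 0.91). TPM per CPM of TAP2 ranged from 0.238 to 0.575, a factor of 2.42, whereas for HLA-C it varied by a factor of 1.17.

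**Figure D3:**
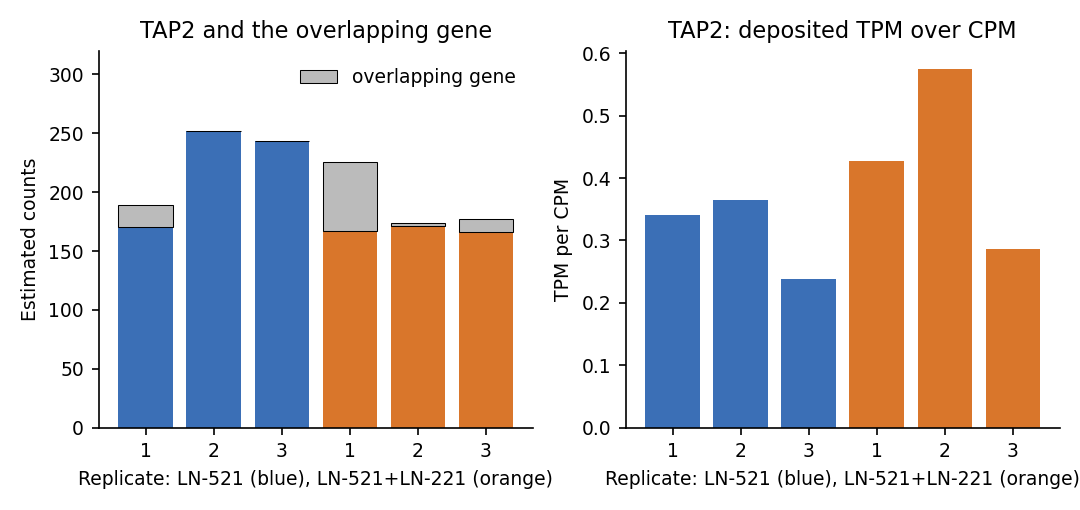
Estimated counts of TAP2 (colour) with those of the overlapping gene model stacked on top (grey), by library (left), and deposited TPM divided by CPM for TAP2 in the same libraries (right). Replicate 1 of LN-521+LN-221 gave 58.04 counts to the overlapping model, and the ratio differs 2.42-fold between libraries.

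NLRC5, the transactivator of the class I promoters, rested on few counts. It had 20, 46 and 40 counts on LN-521, against 18, 32 and 28 counts on LN-521+LN-221, or 0.871, 1.73 and 1.61 CPM against 0.867, 1.44 and 1.18 CPM. Replicate 1 was the lowest well on both coatings and the groups overlapped. The log2 fold change was -0.28 ± 0.30 (SE), interval -0.91 to 0.36 (edgeR adjusted p = 0.742), the widest of the 9, and -0.52 without replicate 1 of LN-521 (adjusted p = 0.311). It was -0.09 without replicate 2 of LN-521 and -0.11 without replicate 1 of LN-521+LN-221. On the deposited TPM scale NLRC5 was at 0.87, 1.04 and 0.77 on LN-521, against 0.36, 0.59 and 0.57 on LN-521+LN-221, so that the coatings did not overlap. TPM did not overlap for 1 of 9 members, against 12.8% of the genes tested. The smallest exact two-sided permutation p that 3 wells against 3 can give is 0.1, and at these levels NLRC5 was not among the genes tested on TPM. TPM per CPM of NLRC5 ranged from 0.48 to 0.999 on LN-521 and, with laminin-221 added, from 0.411 to 0.482, and its part in that separation was not tested.

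**Figure D4:**
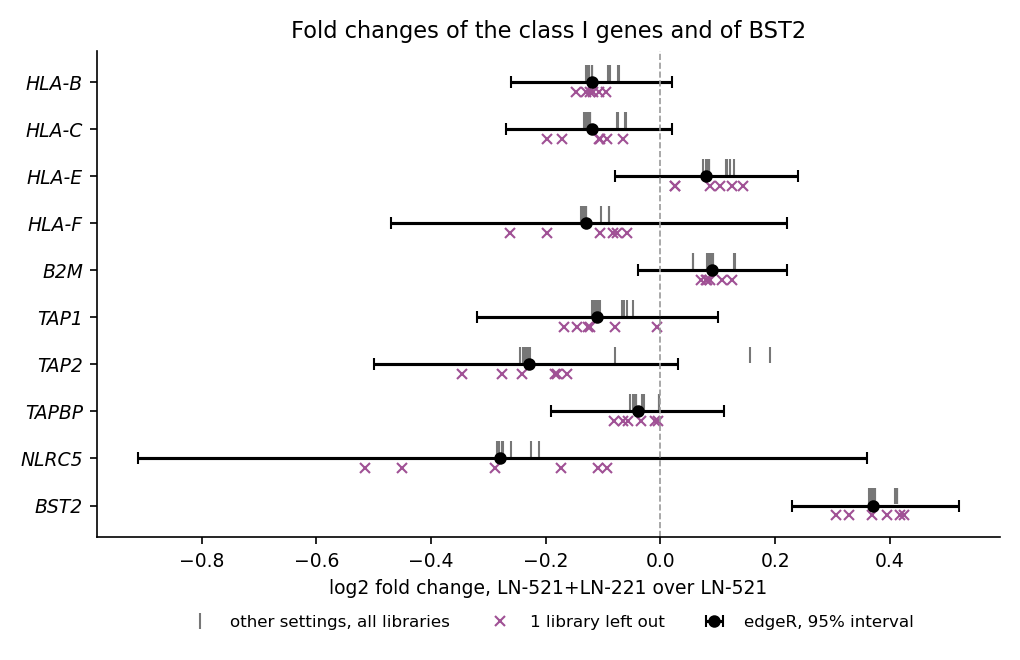
Log2 fold change of LN-521+LN-221 over LN-521 for the 9 members and BST2 from edgeR, with 95% intervals (points and bars); grey ticks are other settings with all libraries and crosses are fits with 1 library left out. Every member's interval includes 0, TAP2 crosses 0 in the fits on TPM, and BST2 stays above 0 in all settings run.

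Other genes of antigen presentation and interferon response were described from 8 lists of 81 genes, of which 67 were tested. BST2 (tetherin), an interferon-induced membrane protein that holds budding virus at the cell surface, rose, and it was the only one of the 67 called. It was at 65, 74.1 and 69.1 CPM on LN-521, against 84.5, 87.3 and 97.8 CPM on LN-521+LN-221. Every well with laminin-221 was higher than every well without it, and the fold was 1.3 (interval 1.17 to 1.43; edgeR adjusted p = 0.00504). The call was lost without replicate 3 of LN-521+LN-221 (adjusted p = 0.065) and in limma on TPM (adjusted p = 0.0839), with the same direction; without replicate 1 of LN-521 it held (0.33, adjusted p = 0.00275). The share called higher among all genes was 1.4%, and 9 of the 67 had an unadjusted p under 0.05 against 14.5% of all genes. The median log2 fold change over the 67 genes was 0.01.

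In the interferon-stimulated list, 10 of 16 genes were tested, 1 was called and 9 had a log2 fold change above 0, with a median of 0.13, beside 8749 of 17608 genes above 0. IFITM1, which restricts viral entry and is abundant in pluripotent cells, was the highest of them at 225 to 277 TPM, and its log2 fold change was 0.14 ± 0.08 (SE; edgeR adjusted p = 0.485). It was 0.06 without replicate 1 and 0.23 without replicate 2 of LN-521, and 0.07 without replicate 3 of LN-521+LN-221. ISG15, a ubiquitin-like modifier, was at 12.5 to 16.2 TPM with a log2 fold change of 0.09 ± 0.13. The guanylate-binding proteins GBP1 and GBP2, strong targets of interferon gamma, had 0 to 2 counts per library. The chemokine gene CXCL10 had 0 counts in all 6 libraries. These were among the 6 genes of the list below the filter. Of the tested genes, MX1 had 125 to 181 counts, IFIT1 59 to 111 and OAS3 39 to 63. The OAS3 estimate was 0.37 (edgeR adjusted p = 0.413), with no overlap in CPM or TPM. By deposited TPM, means with laminin-221 were higher for 10 of the 10 tested genes and lower for 0. Summed TPM of the list was 575 to 593 in wells without laminin-221, against 646 to 681 in wells with it. Of the 12 interferon receptor and signalling genes none was called by edgeR, 3 had an unadjusted p under 0.05 against 14.5% of all genes, and their median was -0.02. TYK2, a receptor-bound kinase and the highest of them in mean TPM over the 6 libraries, though not in each library, had a log2 fold change of -0.04 (interval -0.21 to 0.14). In limma on log2(TPM + 1) the TYK2 estimate was -0.20 (adjusted p = 0.696). The largest estimate among these genes was that of SOCS1, a feedback inhibitor, at -0.45 ± 0.21 (edgeR adjusted p = 0.324). It became -0.69 without replicate 2 of LN-521+LN-221 and -0.28 in limma on log2(TPM + 1).

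Of 12 factors known to bind class I promoters, some bind the X and Y boxes and IRF1, IRF2, NFKB1 and RELA bind interferon response or kappa-B elements. All 12 were tested, and edgeR called none at an adjusted or an unadjusted p under 0.05; the median was 0.03. NFYB, a subunit of the Y-box factor, was the highest in mean TPM over the 6 libraries, though not in each, at 35 to 48.4 TPM, and had an estimate of 0.08 ± 0.06 (log2, SE; edgeR adjusted p = 0.648), which became 0.13 without replicate 1 and 0.02 without replicate 2 of LN-521, 0.03 with the GC correction and 0.17 in limma on log2(TPM + 1). RFX5, which binds the X1 box, was at 27.2 to 37.8 TPM, and its log2 fold change of 0.04 had an interval of -0.08 to 0.15. RELA, a subunit of NF-kappa-B, had the largest estimate with all libraries, -0.22 ± 0.11 (edgeR adjusted p = 0.358), which became -0.10 without replicate 2 of LN-521. Levels of these factors in TPM were thus above that of NLRC5, at 0.36 to 1.04, in every library.

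Upstream of the transporter, edgeR called none of the 5 immunoproteasome genes and none of the 7 constitutive proteasome genes; at an unadjusted p under 0.05 there were 1 and 0, against 14.5% of all genes. PSMB10, the inducible beta2 subunit, had the largest estimate. It was at 6.45, 6.99 and 7.02 CPM on LN-521, against 4.72, 5.65 and 5.49 CPM on LN-521+LN-221, which did not overlap. Its log2 fold change was -0.37 ± 0.13 (SE; edgeR unadjusted p = 0.0121, adjusted p = 0.181). Relative to PSMB7, its constitutive counterpart, PSMB10 stood (mean ± SD in TPM, n = 3 each) at 13 ± 0.625% on LN-521 and 10.2 ± 0.961% on LN-521+LN-221, again without overlap. PSMB8 was at 6.69 ± 0.296% and 7.26 ± 1.14% of PSMB5, and PSMB9 at 1.06 ± 0.14% and 1.21 ± 0.231% of PSMB6, both with overlap. In every library each inducible subunit was thus at 13.6% or less of its counterpart. All 7 constitutive proteasome genes had a log2 fold change below 0, from -0.11 to -0.02, beside 50.3% of all genes. On the deposited TPM only 2 of the 7 had a lower mean on LN-521+LN-221. PSME1, an inducible activator subunit, had a log2 fold change of 0.01, and PSMA7, a constitutive alpha subunit, of -0.11 (edgeR adjusted p = 0.412; -0.07 without replicate 2 of LN-521 and in limma on log2(TPM + 1)).

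Among 8 loading and trimming genes, 6 were tested, edgeR called none and 2 had an unadjusted p under 0.05, against 14.5% of all genes. These were SEC61A1, a subunit of the translocon, at -0.14 ± 0.05 (SE; edgeR adjusted p = 0.214), and CALR (calreticulin), a chaperone of the loading complex, at -0.11 ± 0.05 (adjusted p = 0.322), and in both the CPM of the coatings did not overlap, as in 19.9% of all genes. CANX (calnexin), the chaperone of new heavy chains, was the highest at 243 to 321 TPM, with a log2 fold change of -0.03 and an interval of -0.13 to 0.08. ERAP1, which trims peptides in the endoplasmic reticulum, had the largest estimate at 0.14 ± 0.08 (SE; edgeR adjusted p = 0.453), which became 0.09 without replicate 3 of LN-521 and 0.07 in limma on log2(TPM + 1). TAPBPL, a second peptide editor related to tapasin, had 6 to 12 counts and was not tested. Of 13 class I-like genes and ligands of natural killer receptors, 8 were tested, edgeR called none and 1 had an unadjusted p under 0.05 (14.5% of all genes). That gene was ULBP3, a ligand of NKG2D, at 1.22, 0.827 and 1.12 CPM against 1.78, 1.57 and 1.39 CPM (log2 fold change 0.58 ± 0.26, edgeR adjusted p = 0.309; 0.38 in limma on log2(TPM + 1)). FCGRT, the heavy chain of the neonatal Fc receptor, which also pairs with B2M, was the highest of these at 10.2 to 13.9 TPM, with -0.14 ± 0.10. The FCGRT estimate was -0.23 without replicate 1, -0.09 without replicate 2 and -0.09 without replicate 3 of LN-521. It was -0.08 without replicate 2 of LN-521+LN-221, -0.07 with the GC correction and -0.00415 in limma on log2(TPM + 1).

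**Figure D5:**
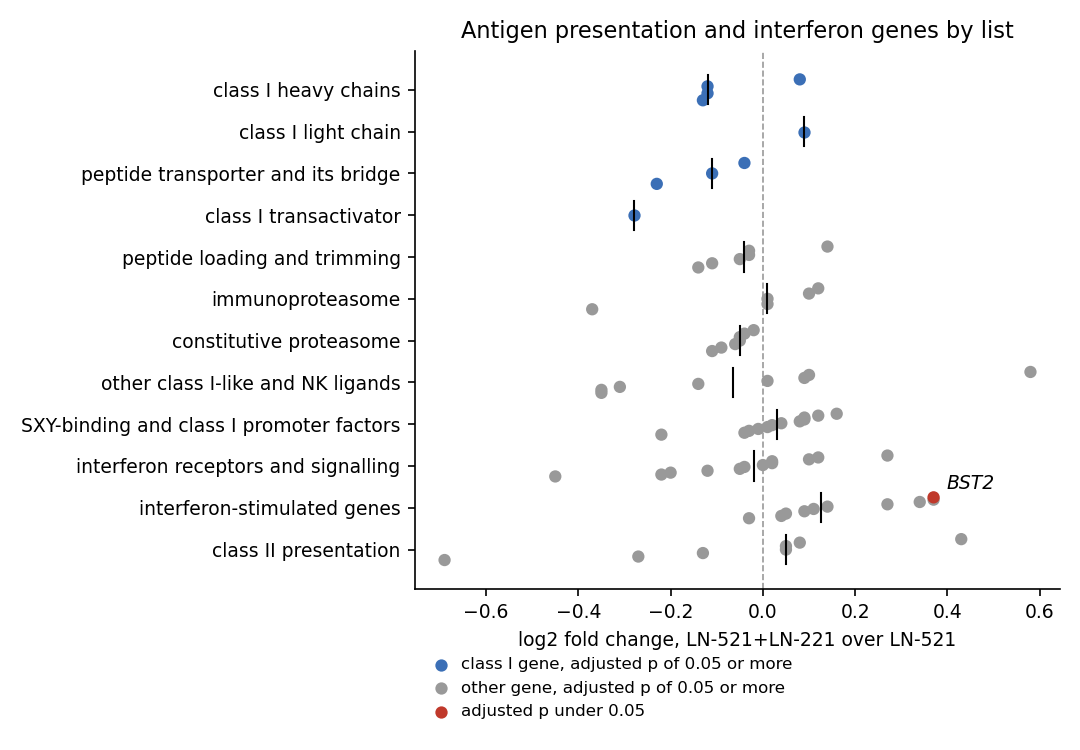
Log2 fold change of LN-521+LN-221 over LN-521 for the tested genes of 12 lists (points; black bars are list medians), with the class I members in blue and the gene that passed the threshold in red. BST2 is the only red point, and list medians run from -0.28, for NLRC5 alone, to 0.13, for the interferon-stimulated genes.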

How the data were processed

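The authors deposited 2 gene tables: one of estimated counts, in which 6.08% to 6.67% of the values per library are not whole, and one of TPM. The submitters' processing notes name cutadapt, STAR 2.5.2b, RSEM 1.2.31 and hg38; the annotation and the use of strand are not given in the sources used here. Per the labels' protocols, 700 ng of total RNA went into a stranded total RNA kit and was read in pairs of 150 bp. The sample sheet lists 1 sequencing batch.

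Counts were rounded, filtered with filterByExpr (minimum count 10), scaled by TMM and tested with edgeR 4.0.16 (R 4.3.3; quasi-likelihood, robust, all 6 libraries, no replicate block), with Benjamini-Hochberg adjustment over all genes tested and a threshold of 0.05. CPM uses the TMM-scaled library sizes. On simulated counts the main method recovered 89% of log2 changes of 1 and 71% of smaller ones, and 6.98% of its calls were false. Changes as small as the members' estimates were not simulated. A symbol was found for 68% of IDs, and GENCODE release 29 held 93.8%. Alternatives were RLE factors, library size alone, no filter beyond 1 count, 1 CPM in 3 libraries, DESeq2 1.42.0, limma 3.58.1 on log2 TPM with a pseudocount of 1 or 0.1 (genes reaching 1 TPM in at least 3 libraries), a replicate block, a GC correction (lowess span 0.3) with and without the block, each library left out and, chosen after seeing the data, TAP2 summed with its overlapping gene.

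The members and lists were chosen with earlier results of these data known. Named were all members and, from each list, genes with an adjusted p under 0.05, the gene of highest mean TPM and the tested gene of largest absolute log2 fold change; likeness to B2M and TAP1 named 3 genes each, with a symbol and a mean CPM of at least 10. Other genes named were chosen after their values were seen. Some genes of the lists are not reported here. Wells with the same replicate number did not deviate together (correlations across genes of 0.0473, -0.0223 and 0.00902), so the numbers were not taken to pair the wells.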

Additional observations from a re-analysis of the deposited data

How the results depend on the processing

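Over all genes, the 446 calls became 718 without a filter beyond 1 count, 913 with the GC correction, 982 with the GC correction and the replicate block, 44 in limma on log2(TPM + 1) and 20 in limma on log2(TPM + 0.1). Leaving out 1 library gave 194 to 1179: 1179 and 201 without replicates 1 and 3 of LN-521, and 290, 198 and 194 without replicates 1, 2 and 3 of LN-521+LN-221. Members called stayed at 0 in every setting with all libraries and were 0 to 1 when 1 library was left out; the 1 was HLA-C without replicate 1 of LN-521 (-0.197). With the replicate block 646 genes were called and no member, and BST2 remained the only call in the 8 lists; same-numbered wells did not deviate together, so the block has no basis in pairing. Calls in the 8 lists, 1 in the main analysis, were 0 in both limma fits, 2 with the GC correction (BST2 and HLA-DRB1) and 4 with the GC correction and the replicate block (these and IFITM1 and IFITM3), and 0 to 2 when 1 library was left out (2, with IFITM3, without replicate 2 of LN-521, and 0 without replicate 3 of LN-521+LN-221).

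The estimate reversed for TAP2 in limma on TPM (0.156 and 0.191 with pseudocounts of 1 and 0.1), for CANX (0.0601 and 0.0603) and for COL1A1 (0.0101 and 0.0103) in the same fits, and for TYK2 with the GC correction (0.0231, and 0.0222 with the replicate block). With 1 library left out it reversed for TYK2 (-0.0956 to 0.00528), PSME1 (-0.0721 to 0.0951), TEK (-0.051 to 0.102) and PAX6 (-0.056 to 0.733); none of these genes passed the threshold in the main analysis, and the cause was not tested. Other members kept their direction in all settings run. Over the alternatives 0.139% to 6.54% of all genes were called. NLRC5 had the fewest counts of the members, 18 to 46 per library.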

Other observations

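Class II presentation genes were detected at low levels. Of 8 such genes, 7 were tested and edgeR called none; 1 had an unadjusted p under 0.05, against 14.5% of all genes. That gene was HLA-DRB1, the beta chain of HLA-DR, at 4.92, 4.96 and 4.33 CPM on LN-521, against 6.31, 6.41 and 6.42 CPM on LN-521+LN-221. The coatings did not overlap, and the log2 fold change was 0.43 ± 0.13 (SE; edgeR adjusted p = 0.105, and 0.0391 with the GC correction). Its counts were not whole in any library. HLA-DRA, the alpha chain, had a log2 fold change of 0.08 ± 0.13 at 4.29 to 6.02 TPM. CD74, the invariant chain, was the highest of the list at 15.8 to 19.5 TPM, with -0.13 ± 0.09 (edgeR adjusted p = 0.55). Its estimate was -0.21 without replicate 1 and -0.08 without replicate 2 of LN-521, -0.08 without replicate 3 of LN-521+LN-221 and -0.08 with the GC correction. CIITA, the class II transactivator and a relative of NLRC5, had 17, 19 and 17 counts on LN-521, against 14, 12 and 3 on LN-521+LN-221. Its log2 fold change was -0.69, with an interval of -1.62 to 0.24 (edgeR adjusted p = 0.515). Without replicate 3 of LN-521+LN-221 the estimate was -0.235, and without replicate 1 of LN-521+LN-221 it was -1.1. On the deposited TPM the coatings overlapped, with a mean of 0.13 on LN-521 and 0.137 on LN-521+LN-221.

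Patterns across the 6 libraries were compared by the root mean square difference of centred log2 CPM over 10033 genes. The genes most like B2M were UFSP2 (0.0122), SLC1A6 (0.0162) and LTA4H (0.0182), and those most like TAP1 were STMN3 (0.0149), MTG2 (0.0157) and SNX17 (0.0166). None of these 6 genes passed the threshold in edgeR, and over so few libraries such likeness is a description only.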
